A study of Mus musculus with 13 samples.

Results

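The kinesin family was described in growing C2C12 myoblasts, a mouse muscle precursor line, from an RNA-seq library labelled siLinc-Yy1 and an RNA-seq library labelled siNC. The members were the rows of the gene-level table whose symbol is Kif followed by a number, an optional letter and an optional digit, which gave 37 of 23236 rows. By the usual reading of such labels, siLinc-Yy1 is an siRNA against the long noncoding RNA Linc-Yy1 and siNC a control siRNA, and both libraries come from poly(A) RNA of the same single line at the myoblast stage. With 1 library for each siRNA, the values describe this pair of libraries, and no spread between cultures was available. Another 6 rows whose symbols start with Kif did not match the pattern, among them the minus-end motor Kifc1, the adaptor Kifap3 and the pseudogene Kif4-ps.

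Kinesins are motor proteins that use ATP to move along microtubules or to take their ends apart. The mitotic members build the spindle, align chromosomes and complete cell division, and most are made mainly by dividing cells. The transport members carry vesicles, mitochondria, mRNA and other cargo, and in muscle cells Kif5b, the widely expressed heavy chain of conventional kinesin, also helps to move nuclei. By their textbook roles 13 rows were placed among the mitotic motors, 13 among the transport motors and 11 in a remaining group of ciliary, signalling and atypical kinesins.

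The targeted RNA was scarce in both libraries, with the lincYy1 row at 0.227 FPKM in siLinc-Yy1 and 0.360 FPKM in siNC (FPKM counts fragments relative to transcript length and to library depth). The level of the target therefore does not check the label of the siLinc-Yy1 library. All 9 myoblast markers were measured, with the determination factor Myod1 at 67.0 FPKM in siLinc-Yy1 and 62.5 FPKM in siNC, and their summed level was 2285 and 1465 FPKM in the same order of libraries. Most of this sum came from the filament genes Vim (1366 and 749 FPKM) and Des (487 and 322 FPKM). Myog (19.4 and 22.8 FPKM) and Msc (2.63 and 3.92 FPKM) were lower in siLinc-Yy1, and less the running median of rows of like level the list had a median of -0.039. Of the 9 rows that mark other cell types, Krt14 stood at 4.22 FPKM in siLinc-Yy1 and 4.41 FPKM in siNC, and the other 8 were at most 0.181 and 0.184 FPKM without being listed at 0. Across the 11792 rows with a mean of at least 1 FPKM, the log2 ratio of siLinc-Yy1 over siNC was centred at -0.021 (median), with 95% of rows between -0.38 and 0.71. This ratio was taken after adding 1 FPKM to each value, which understates the change of low genes.

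Most of the mitotic kinesin promoters looked at share a short sequence that the choice of members did not use. Many genes of late cell cycle carry the letters TTTGAA, the cell cycle homology region, close to where transcription starts, and the MuvB complex binds there. RefSeq promoter sequences (build GRCm38.p6, from 250 bases before to 50 bases after the annotated start) were found for 31 of the 37 members. The 6 without one were the mitotic Kif20a and Kif5a, Kif5b, Kif13b, Kif19a and Kif21b. On either strand, TTTGAA lay in the 300 bases of 9 of 12 mitotic kinesins, 1 of 10 transport kinesins and 2 of 9 other kinesins. Among all 27025 genes with a promoter in the table it lay in 20.2%. Within 30 bases on either side of the start, it was present in 7 of 12 mitotic kinesins, in 0 of 10 transport kinesins, in Kif26b among the other kinesins, and in 3.39% of all genes. The narrow window was chosen after the positions were seen. The 60 bases around the start of the 7 mitotic genes are shown because they carry this shared element, with TTTGAA or its reverse complement in capitals and the start site as base 31. They lie on chromosomes 19 (Kif11 and Kif20b), 9 (Kif15 and Kif23), 11 (Kif18b), 7 (Kif22) and X (Kif4).
Kif11, chr19:37376352-37376411, plus strand: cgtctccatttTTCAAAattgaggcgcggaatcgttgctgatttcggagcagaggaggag
Kif15, chr9:122951051-122951110, plus strand: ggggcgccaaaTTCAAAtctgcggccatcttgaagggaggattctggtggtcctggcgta
Kif18b, chr11:102925095-102925154, minus strand: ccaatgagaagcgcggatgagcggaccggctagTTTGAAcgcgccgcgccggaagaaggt
Kif20b, chr19:34922328-34922387, plus strand: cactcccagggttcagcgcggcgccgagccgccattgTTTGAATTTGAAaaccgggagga
Kif22, chr7:127042391-127042450, minus strand: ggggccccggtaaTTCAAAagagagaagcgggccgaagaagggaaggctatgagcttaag
Kif23, chr9:61946770-61946829, minus strand: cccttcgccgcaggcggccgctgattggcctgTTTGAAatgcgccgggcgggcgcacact
Kif4, chrX:100626035-100626094, plus strand: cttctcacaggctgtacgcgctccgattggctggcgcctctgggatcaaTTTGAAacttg

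Kif20b carried the element in adjacent copies on the strand shown, and Kif11, Kif15 and Kif22 carried it on the opposite strand just before the start. For contrast, the same window is given for Kif18a, a mitotic kinesin without the letters, and for the transport kinesins Kif1c and Kif3b.
Kif18a, chr2:109280708-109280767, plus strand: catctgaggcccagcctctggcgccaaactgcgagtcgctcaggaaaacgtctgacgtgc
Kif1c, chr11:70700518-70700577, plus strand: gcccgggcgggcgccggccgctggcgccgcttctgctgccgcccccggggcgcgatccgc
Kif3b, chr2:153291386-153291445, plus strand: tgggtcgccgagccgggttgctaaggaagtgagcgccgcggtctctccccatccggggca

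**Figure D1:**
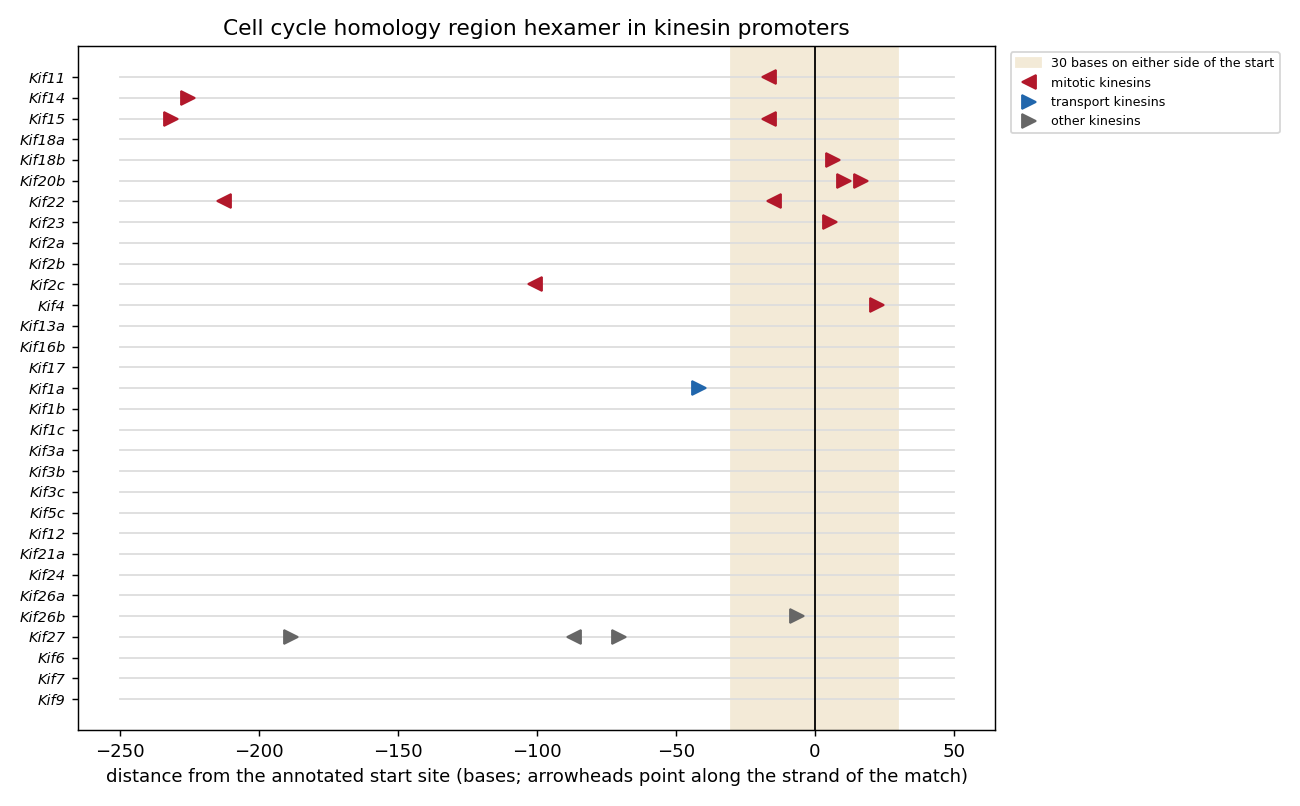
Positions of the cell cycle homology region hexamer in the promoters of 31 kinesin genes, as distance in bases from the annotated start; each arrowhead is a match and points along its strand, and the shaded band spans 30 bases on either side. Matches of 7 mitotic genes and of Kif26b lie in the band, and none of a transport gene does.

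The letters CCAAT, a box that often stands upstream of the element in such promoters, were in 7 of 12 mitotic, 3 of 10 transport and 4 of 9 other kinesins and in 41.1% of all genes. In the Kif23 window printed above, its reverse complement attgg stands just before the start, shortly ahead of TTTGAA. In the Kif4 window attgg likewise precedes the element, and the Kif18b window opens with ccaat, further ahead of its TTTGAA.

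The letters ATGGCG, the core of the site that Yy1 binds, were in 3 of 12 mitotic (Kif11, Kif15 and Kif20b), 3 of 10 transport and 1 of 9 other kinesins, and in 10.2% of all genes. The letters TTTNNCGC, a form of the E2F site, were in Kif15 and Kif18a among the mitotic and in Kif1a among the transport kinesins, and in 5.93% of all genes. These matches describe letters in a window and are not measured binding sites.

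Kinesin transcripts were led by the mitotic motors. Of the 37 rows, 28 had a mean of at least 1 FPKM, and these comprised 12 of 13 mitotic, 11 of 13 transport and 5 of 11 other kinesins. The summed FPKM of all 37 was 540.1 in siLinc-Yy1 and 540.8 in siNC. Mitotic kinesins made up 64.6% of it in siLinc-Yy1 and 65.8% in siNC, transport kinesins 30.3% and 29.5%, and the other kinesins 5.14% and 4.70% in the same order. Kif20a, Kif22 and Kif2c were the 3 highest rows by mean, and the 3 together held 33.4% of the kinesin total in siLinc-Yy1 and 32.8% in siNC.

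The order of the members was nearly the same in both libraries. Ranked by FPKM, 20 of the 37 rows held the same place, 14 moved by 1 place and 3 by 2 places. Neighbours in this order often lay closer together than the libraries did. Kif1c stood just above Kif2c in siLinc-Yy1, at 42.3 and 42.2 FPKM, and below it in siNC, at 39.5 and 42.7 FPKM.

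**Figure D2:**
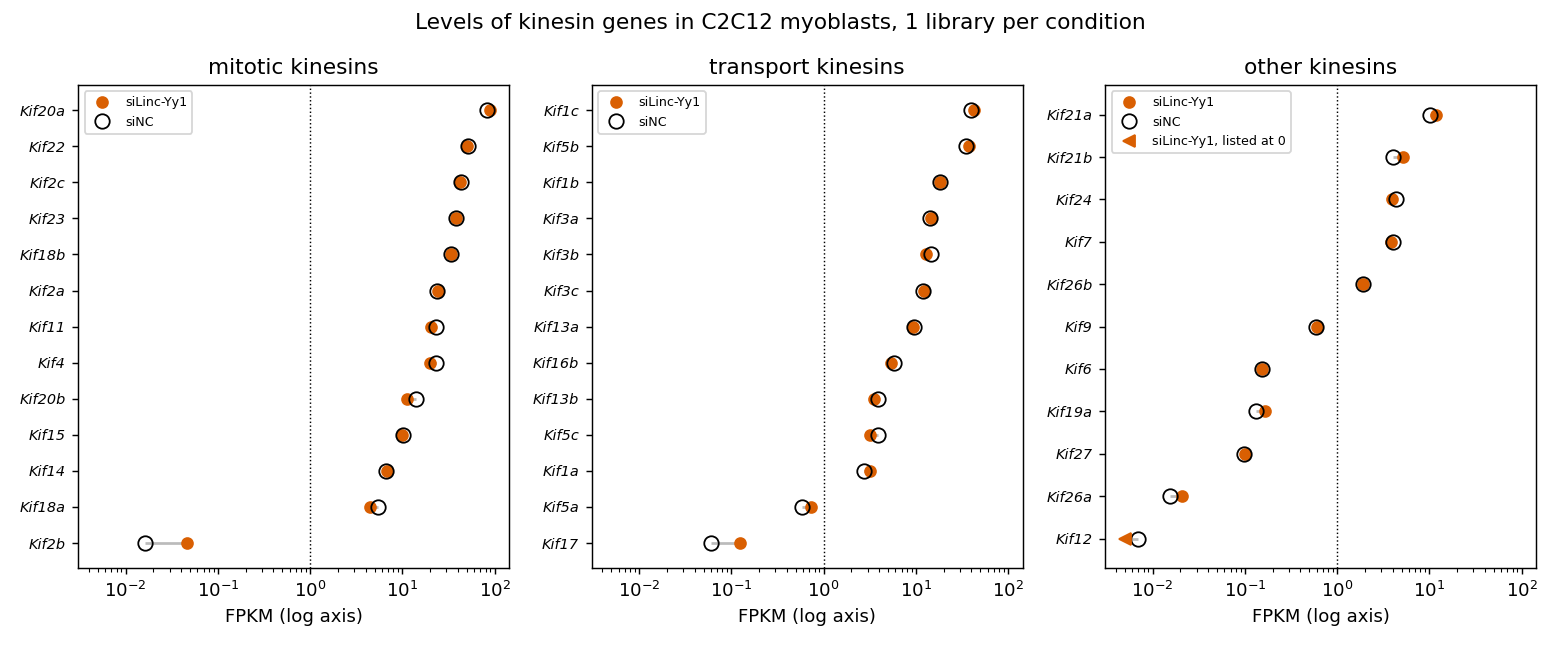
FPKM of each of the 37 kinesin genes on a log axis, with siLinc-Yy1 as filled and siNC as open circles; the dotted line marks 1 FPKM and an arrowhead marks a value listed at 0. The circles of most genes above the line overlap, and only 1 mitotic gene, Kif2b, lies below it.

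No kinesin differed by the 2-fold rule. Among the 28 rows past the filter, 0 were at least 2-fold higher and 0 at least 2-fold lower in siLinc-Yy1, against 1.39% and 0.178% of all rows past the filter. The authors' deposited table called 0 of the 37 rows, of which 30 had status OK and 7 were not tested there. It called 1.62% of all rows with status OK (1.29% higher and 0.327% lower). Its lowest q-value among kinesins was 0.567, that of Kif21b. By sign alone, 13 of the 28 were higher and 15 lower in siLinc-Yy1, while 45.4% of all rows past the filter were higher and 54.6% lower. When both libraries were rescaled to the same summed FPKM, the median of all rows shifted to -0.31, 91.4% of them were lower, and 1 kinesin was higher and 27 lower. Signs therefore hold at the authors' scaling and are best read relative to the other rows. At a fold of 1.2, Kif21b was higher and Kif20b lower, while 10.4% of all rows were higher and 7.81% lower by that much. In bulk RNA, fewer cells of a kind and less RNA per cell cannot be told apart.

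A measure of counting error was had from the steps of low FPKM values in receptor rows. These rows were chosen by symbol, with the whole locus taken as the transcript and no check of exon number. By these steps 1 FPKM stands for about 47.6 fragments per kilobase of transcript in siLinc-Yy1 and 66.1 in siNC. For each row an exact binomial interval (95%) of the FPKM ratio was then computed as if the transcript were 1 kb long. This is shorter than a kinesin motor transcript. A longer transcript would give more fragments and a narrower interval. A row whose interval for 1 kb holds 1 is therefore not shown to lie within counting error. These intervals cover counting error only and say nothing about the spread between cultures. By this measure 23.9% of all rows past the filter lay above a ratio of 1 and 19.2% below it, so an interval that leaves out 1 is common in this pair of libraries. Among the kinesins it left out 1 in 5 rows on the high side and 5 on the low side, and held 1 in the other 18.

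Mitotic kinesins had a median log2 ratio of -0.024, with 4 members higher and 8 lower among the 12 past the filter. Their range was -0.32 to 0.078. Those with the hexamer near the start (7 genes) had a median of -0.053, with 1 higher and 6 lower. The 4 others past the filter with a promoter sequence had a median of 0.010, with 2 higher and 2 lower. These 4 ran from -0.26 to 0.039. Of all rows past the filter 54.6% were lower, and a link of the hexamer to the ratio was not tested. Across the 12, the interval for 1 kb lay below 1 in Kif11, Kif4, Kif20b and Kif18a and above 1 in Kif20a.

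Of the spindle builders, Kif11, the tetrameric motor that pushes antiparallel microtubules apart and makes the spindle bipolar (chromosome 19, 37450893 to 37496349, mm9), measured 20.3 FPKM in siLinc-Yy1 and 23.2 FPKM in siNC. Its ratio of 0.873 had an interval of 0.805 to 0.948. Kif15, which helps to keep the spindle bipolar, measured 9.78 FPKM in siLinc-Yy1 and 10.2 FPKM in siNC. Both lay on the low side in siLinc-Yy1, and the interval of Kif15 (0.851 to 1.08) held 1.

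Among motors that act on chromosomes, Kif22, which pushes chromosome arms toward the cell equator, was the second most abundant kinesin at 50.3 FPKM in siLinc-Yy1 and 51.4 FPKM in siNC. Kif4, a chromosome-bound motor that also sets the length of the central spindle, measured 19.7 FPKM in siLinc-Yy1 and 23.1 FPKM in siNC. Its ratio was 0.852 (0.785 to 0.925), and its pseudogene row Kif4-ps was nearly empty at 0.0118 and 0.0233 FPKM in the same order. Kif22 and Kif4 thus differed in their ratio, which was 0.979 (0.929 to 1.03) for Kif22. Less the running median of rows of like level, both were on the low side, with Kif22 at -0.13 and Kif4 at -0.21.

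Of the motors that shorten or damp microtubule ends, Kif2c, which works at kinetochores, measured 42.2 FPKM in siLinc-Yy1 and 42.7 FPKM in siNC. Kif2a, which acts at spindle poles and also in neurons, measured 24.6 FPKM in siLinc-Yy1 and 23.9 FPKM in siNC. The intervals of Kif2c and Kif2a for 1 kb held 1. Kif18a, which damps plus ends and aligns chromosomes, measured 4.42 FPKM in siLinc-Yy1 and 5.48 FPKM in siNC, a ratio of 0.807 (0.677 to 0.958). Kif18b, which limits the length of astral microtubules, measured 33.3 FPKM in siLinc-Yy1 and 33.6 FPKM in siNC. The remaining relative Kif2b was close to absent, at 0.0460 FPKM in siLinc-Yy1 and 0.0162 FPKM in siNC, which over its whole locus of 2.27 kb is at most 4.96 and 2.43 fragments.

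The cytokinesis motors held the extremes of the class. Kif20a, which acts at the central spindle, was the most abundant kinesin, at 88.0 FPKM in siLinc-Yy1 and 83.3 FPKM in siNC, a ratio of 1.06 (1.01 to 1.10). Its locus in the table also holds Brd8 and Cdc23, so the authors' estimate had to divide the locus between 3 genes. Kif23, the motor of the centralspindlin complex (chromosome 9, 61765085 to 61794606, mm9), measured 38.4 FPKM in both libraries. Kif20b, a relative of these 2 that also acts in cytokinesis (chromosome 19, 34996848 to 35050221, mm9), measured 11.1 FPKM in siLinc-Yy1 and 14.1 FPKM in siNC. With a ratio of 0.786 (0.704 to 0.875) and a log2 ratio of -0.32, Kif20b was the lowest of all 28 kinesins past the filter, and 4.14% of all rows past the filter lay below it. The authors' deposited table gave it a p-value of 0.0528 and a q-value of 0.596. Kif14, a kinesin of late cytokinesis, measured 6.82 FPKM in siLinc-Yy1 and 6.61 FPKM in siNC. The summed FPKM of the 3 kinesin-6 genes (Kif20a, Kif20b and Kif23) was 138 in siLinc-Yy1 and 136 in siNC. Less the running median of rows of like level, all 3 were on the low side, with Kif20a at -0.11, Kif20b at -0.24 and Kif23 at -0.052.

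**Figure D3:**
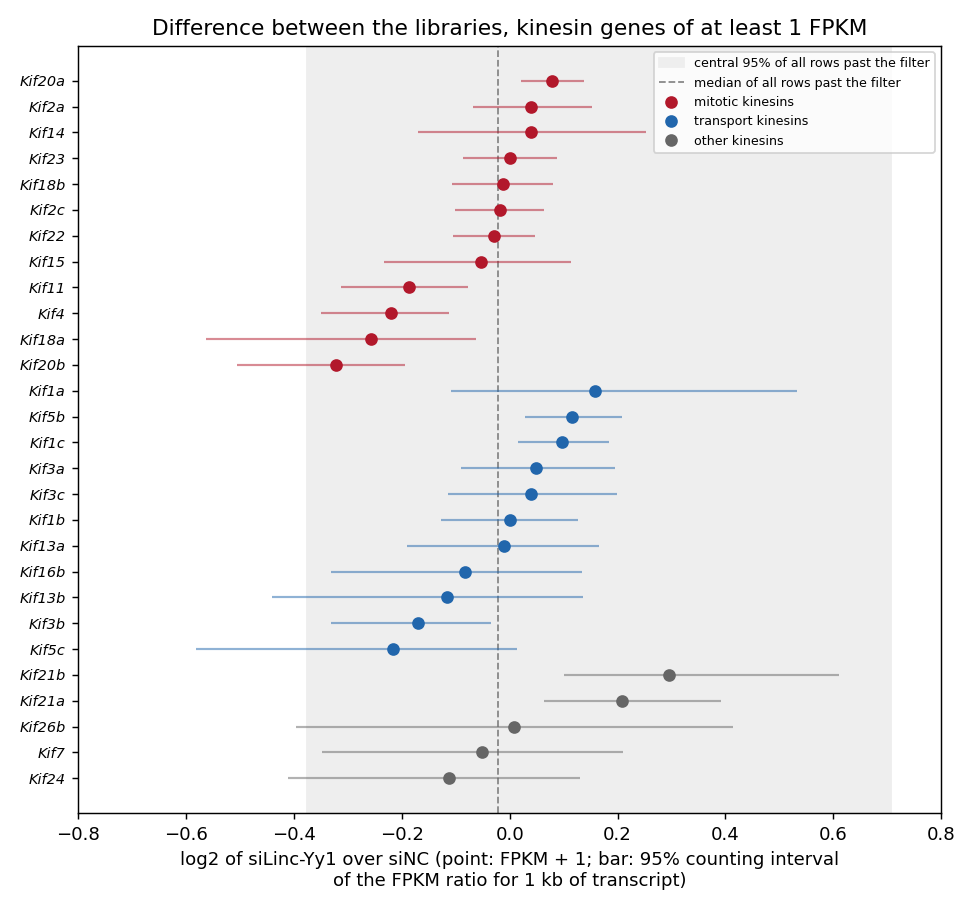
Log2 ratio of siLinc-Yy1 over siNC for the 28 kinesin genes past the filter, in order within each class; points use FPKM + 1 and bars are 95% counting intervals of the FPKM ratio for 1 kb of transcript. All points lie inside the shaded central 95% of all rows (-0.38 to 0.71), with Kif20b lowest and Kif21b highest.

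Transport kinesins had a median log2 ratio of 0.00061, with 6 members higher and 5 lower, and a range of -0.22 to 0.16. The interval for 1 kb lay above 1 in Kif1c and Kif5b, the most abundant members, and below 1 in Kif3b. The difference between the transport and mitotic medians was not tested.

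Conventional kinesin was present mainly as Kif5b, which measured 37.5 FPKM in siLinc-Yy1 and 34.6 FPKM in siNC, a ratio of 1.09 (1.02 to 1.16). Kif5b made up 90.6% of the summed FPKM of the 3 heavy chain genes in siLinc-Yy1 and 88.6% in siNC. Kif5c, a heavy chain found mainly in neurons, measured 3.18 FPKM in siLinc-Yy1 and 3.86 FPKM in siNC, and Kif5a, also a neuronal form, 0.724 and 0.584 FPKM in the same order. The interval of Kif5c (0.668 to 1.01) held 1.

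Kif1c, a vesicle and mRNA carrier and the most abundant transport kinesin, measured 42.3 FPKM in siLinc-Yy1 and 39.5 FPKM in siNC, a ratio of 1.07 (1.01 to 1.14). Kif1b, which carries mitochondria and synaptic vesicle precursors, measured 18.3 FPKM in both libraries. Kif1a, known from axons, was lower than either at 3.18 FPKM in siLinc-Yy1 and 2.75 FPKM in siNC. The endosome carriers of the same family stood between these levels. Kif13a, which carries recycling endosomes, measured 9.39 FPKM in siLinc-Yy1 and 9.48 FPKM in siNC, Kif16b, which carries early endosomes, 5.41 and 5.79 FPKM, and Kif13b 3.49 and 3.87 FPKM in the same order. Counting intervals of these 5 rows held 1.

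The subunits of heterotrimeric kinesin-2, which also drives transport into cilia, lay close to each other in level. Kif3a measured 14.7 FPKM in siLinc-Yy1 and 14.2 FPKM in siNC. Kif3b measured 12.8 FPKM in siLinc-Yy1 and 14.5 FPKM in siNC, a ratio of 0.881 (0.794 to 0.976). Kif3c, an alternative partner of Kif3a whose locus also holds the row 1110002L01Rik, measured 12.3 FPKM in siLinc-Yy1 and 11.9 FPKM in siNC. Of the motor subunits, Kif3b alone had an interval that left out 1. Kif17, the homodimeric relative, was near the floor at 0.123 FPKM in siLinc-Yy1 and 0.0607 FPKM in siNC.

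In the remaining group of ciliary, signalling and atypical kinesins, 5 of 11 rows passed the filter, with a median log2 ratio of 0.0077. Kif21b, which controls microtubule dynamics in neurons and T cells (chromosome 1, 138027978 to 138074591, mm9), measured 5.20 FPKM in siLinc-Yy1 and 4.05 FPKM in siNC. Its ratio of 1.28 (1.07 to 1.53) and log2 ratio of 0.29 were the highest of the 28 kinesins, and 91.1% of all rows past the filter lay below it. The authors' deposited table gave Kif21b a p-value of 0.0470, the only one under 0.05 among the kinesins, and a q-value of 0.567. Its relative Kif21a, which slows microtubule growth at the cell cortex, measured 11.8 FPKM in siLinc-Yy1 and 10.1 FPKM in siNC, a ratio of 1.17 (1.04 to 1.31). Both Kif21 genes thus lay on the high side in siLinc-Yy1.

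Kif7, a regulator of Hedgehog signalling at the tip of the primary cilium, measured 3.83 FPKM in siLinc-Yy1 and 4.01 FPKM in siNC, and its locus in the table also holds 5730590G19Rik. Kif24, which acts at centrioles and restrains cilium assembly, measured 3.97 FPKM in siLinc-Yy1 and 4.37 FPKM in siNC. Kif26b, an atypical kinesin of kidney development, measured 1.90 FPKM in siLinc-Yy1 and 1.88 FPKM in siNC. The intervals of these 3 rows for 1 kb held 1. The motile cilia kinesins Kif9, Kif6 and Kif19a were low, at 0.606, 0.153 and 0.164 FPKM in siLinc-Yy1 and 0.592, 0.154 and 0.131 FPKM in siNC. Kif27 stood at 0.101 FPKM in siLinc-Yy1 and 0.0970 FPKM in siNC, and Kif26a at 0.0206 and 0.0153 FPKM in the same order. Kif12, known from kidney and liver epithelia, was listed at 0 in siLinc-Yy1 and stood at 0.00701 FPKM in siNC, at most 3.01 fragments over its locus.

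Because abundant genes were higher in siLinc-Yy1 than scarce ones in this table, the kinesins were also set beside rows of like level. Among 3755 rows of 20 to 100 FPKM the median log2 ratio was 0.059, and that of the 10 kinesins of this level was -0.0059. Among 4651 rows of 5 to 20 FPKM the medians were -0.071 for all rows and -0.0054 for 10 kinesins. Among 2644 rows of 1 to 5 FPKM they were -0.092 for all rows and -0.082 for 8 kinesins. In each band 0 kinesins lay outside the central 95% of the band. When the running median along the level axis was taken off each row, mitotic kinesins had a median of -0.093, transport kinesins 0.045 and the other kinesins 0.099. On that scale the mitotic members ran from Kif20b at -0.24, Kif4 at -0.21, Kif11 at -0.18, Kif18a at -0.14, Kif22 at -0.13 and Kif20a at -0.11 through Kif2c at -0.072, Kif18b at -0.057 and Kif23 at -0.052. Kif15 at 0.024, Kif2a at 0.044 and Kif14 at 0.13 lay above the running median. Transport members ran from -0.12 (Kif3b) to 0.27 (Kif1a), and Kif21b stood at 0.41.

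**Figure D4:**
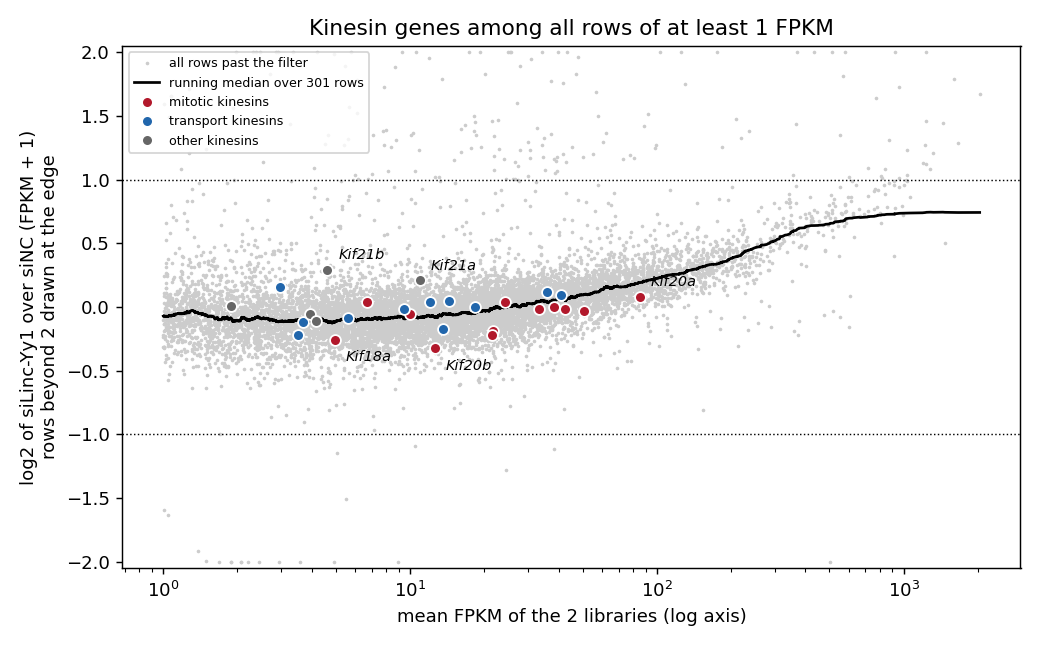
Log2 ratio of siLinc-Yy1 over siNC (FPKM + 1) against the mean FPKM on a log axis, with all rows past the filter in grey, kinesins coloured by class and the running median as a line; dotted lines mark 2-fold. The kinesins lie inside the cloud of rows of like level and none reaches a dotted line.

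The partners with which mitotic kinesins work gave a like picture. All 43 rows of the spindle and cytokinesis list passed the filter, with 18 higher and 25 lower in siLinc-Yy1 and a median of -0.050. The list includes the motors Kifc1 and Cenpe. Without them, 41 rows had a median of -0.033, with 18 higher and 23 lower. Of the 43, 0 were at least 1.5-fold higher and 0 at least 1.5-fold lower, against 3.28% and 0.517% of all rows. Racgap1, the partner of Kif23 in centralspindlin, measured 124 FPKM in siLinc-Yy1 and 105 FPKM in siNC. Aurkb, the kinase that activates this complex, measured 50.3 FPKM in siLinc-Yy1 and 48.0 FPKM in siNC, Prc1, which bundles the central spindle and recruits Kif4, 83.6 and 75.3 FPKM, and Tpx2, a spindle assembly factor that binds Kif11 and Kif15, 61.0 and 55.8 FPKM in the same order. The authors' deposited table marks the Tpx2 row as FAIL, so its values are uncertain. These 4 abundant partners were on the high side, and less the running median they stood at -0.023, -0.031, -0.027 and 0.

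The list members with the largest difference were on the low side. The minus-end motor Kifc1, which clusters spindle poles, measured 26.6 FPKM in siLinc-Yy1 and 33.7 FPKM in siNC, a ratio of 0.788 (0.735 to 0.845). Its row and that of the copy Kifc5b (19.0 FPKM in siLinc-Yy1 and 24.6 FPKM in siNC) are uncertain where reads fit both. The checkpoint kinase Bub1 measured 13.3 FPKM in siLinc-Yy1 and 17.0 FPKM in siNC. The kinetochore proteins Mis12 (16.8 and 20.5 FPKM) and Spc25 (32.5 and 38.6 FPKM) were ordered alike in the same libraries. Cenpe, a kinetochore kinesin outside the symbol pattern, measured 22.1 FPKM in siLinc-Yy1 and 25.3 FPKM in siNC, while Kifc3 measured 12.4 and 12.3 FPKM. The hexamer lay near the start in 16 of the 36 partners with a promoter sequence, and the 15 of them in the table had a median of -0.084, with 6 higher and 9 lower. The 19 without it had a median of -0.050, with 7 higher and 12 lower.

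Adaptors and light chains, which link transport kinesins to cargo, had a median of 0.0045 over 17 rows past the filter, with 10 higher and 7 lower. Klc1 measured 104 FPKM in siLinc-Yy1 and 88.9 FPKM in siNC, Klc2 27.4 and 25.2 FPKM, and Kifap3, the nonmotor subunit of kinesin-2, 19.4 and 21.0 FPKM in the same order. The members that differed most were Arl8a, a lysosomal GTPase that recruits kinesins (76.5 FPKM in siLinc-Yy1 and 61.6 FPKM in siNC), the JNK scaffold Mapk8ip3 (23.6 and 19.0 FPKM), Klc1 and Arl8b (22.2 and 25.4 FPKM). The close relatives Arl8a and Arl8b thus lay on opposite sides.

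Dynein and dynactin genes, whose motor walks the other way, had a median of 0.020 over 28 rows, with 15 higher and 13 lower. The light chain Dynlrb1 measured 274 FPKM in siLinc-Yy1 and 195 FPKM in siNC, or 0.047 less the running median. The intermediate chain Dync1i1 measured 9.09 FPKM in siLinc-Yy1 and 12.4 FPKM in siNC. The light chain copies Dynlt1a (51.2 FPKM in siLinc-Yy1 and 66.7 FPKM in siNC) and Dynlt1f (0.647 and 1.45 FPKM) are near-identical, so single values are uncertain. The 15 intraflagellar transport genes past the filter, cargo trains of kinesin-2 in cilia, had a median of -0.073, with 5 higher and 10 lower. Ift74 (19.5 FPKM in siLinc-Yy1 and 23.6 FPKM in siNC), Ift122 (11.0 and 12.6 FPKM), Ift57 (21.2 and 18.6 FPKM) and Ift46 (21.3 and 19.0 FPKM) differed most.

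Tubulins, the track itself, had a median of -0.075 over 15 rows, with 6 higher and 9 lower. Tubb5 measured 518 FPKM in siLinc-Yy1 and 325 FPKM in siNC, the only row of the partner lists at least 1.5-fold higher, and 0.031 less the running median. Tubb3 (152 FPKM in siLinc-Yy1 and 117 FPKM in siNC) lay on the same side, and Tubb4a (2.38 and 3.43 FPKM) and Tubg2 (7.74 and 10.0 FPKM) on the other. Less the running median, only Tubb5 and Tubb3 (0.083) of the 15 rows lay above 0, and the list median was -0.20. Tuba1c at -0.83, Tuba1b at -0.75, Tuba1a at -0.69, Tubb2a at -0.62 and Tubb2b at -0.51 lay furthest below rows of like level. The authors' deposited table called 0 rows in any of these partner lists, and 1.62% of all rows with status OK. In these lists Tpx2, Dynlrb2, Mapk8ip2 and Tubb1 did not have status OK and could not be called.

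**Figure D5:**
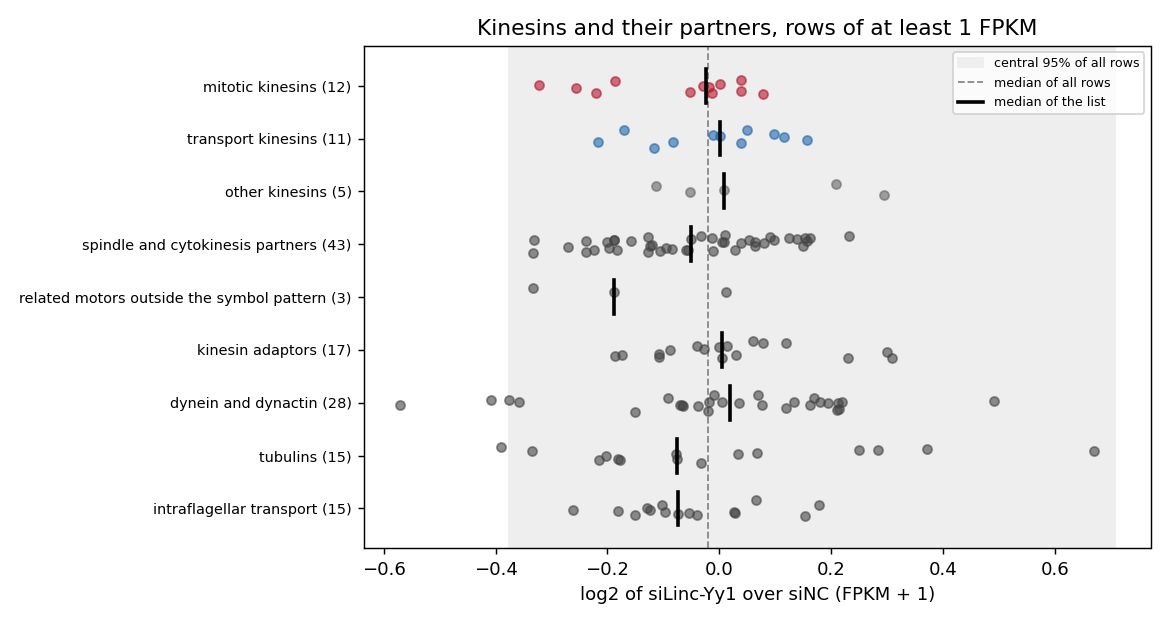
Log2 ratio of siLinc-Yy1 over siNC (FPKM + 1) for kinesin classes and partner lists, each point a row of at least 1 FPKM, with the list median as a bar and the number of rows in parentheses. List medians lie between -0.19 and 0.020, close to the median of all rows at -0.021 except for the 3 related motors, Kifc1, Cenpe and Kifc3.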

How the data were processed

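The series lists 13 samples, of which the 2 siRNA libraries were analysed. The other RNA-seq and the ChIP-seq samples were not used here. Both libraries stand in 1 Cuffdiff gene table, present as 2 identical copies. Its FPKM values, p-values and q-values were deposited by the authors and are named as such in the header line. Alignment and quantification tools are TopHat2 2.0.4, Cufflinks 2.1.1 and Cuffdiff 2.0.4 on mm9, per the submitters' processing notes. How the libraries were scaled, which annotation was counted and whether strand was used is not given in the sources used here, and a scaling of the authors could shift all ratios together.

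Each ratio had 1 FPKM added above and below the line and was taken on the log2 scale, siLinc-Yy1 over siNC, with a filter at a mean of 1 FPKM, a 2-fold size rule and no test, since each condition has 1 library. Depth was estimated from receptor rows near 1 fragment. Within 0.02 fragments, 48.8% of 549 low rows in siLinc-Yy1 and 52.4% of 716 in siNC were whole, so no count test was run. The alternatives were other pseudocounts, filters, folds and scalings, rows with status OK and the authors' calls. The rule for named genes took every kinesin, direct partners and the 4 largest differences per list. Tubulins far below the running median were named outside this rule. Members and lists were chosen with earlier results of these data known. Python 3.11.15, numpy 2.4.6, pandas 2.3.3, scipy 1.17.1 and matplotlib 3.10.9 were used.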

Additional observations from a re-analysis of the deposited data

How the results depend on the processing

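No paired analysis was possible because each condition has 1 library. Counts of kinesins at least 2-fold higher or lower stayed at 0 under every alternative that kept the fold at 2, at a fold of 1.5 and in the authors' deposited calls; at a fold of 1.2 they were 1 and 1. Rescaling to equal summed FPKM, which lowers all rows of siLinc-Yy1, moved the median log2 ratio to -0.34 for mitotic, -0.30 for transport and -0.31 for all kinesins, -0.36 for spindle partners, -0.30 for adaptors, -0.26 for dynein and dynactin and -0.40 for tubulins. Under this scaling 27 of 28 kinesins were lower in siLinc-Yy1, against 15 at the authors' scaling. On the log2 scale, 22 of the 28 moved by more than the distance from the middle of their counting interval to its end. The tubulin median was -0.032 among rows of at least 5 FPKM and -0.20 after subtraction of the running median. The median of the other kinesins (5 genes) was -0.20 under rescaling and 0.21 among rows of at least 5 FPKM, against 0.0077. Centring on the median of all rows left 16 kinesins higher and 12 lower. Counting intervals rest on an estimated depth and a nominal length, and the spread between cultures is unknown.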

Other observations

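Kif20b, the kinesin with the lowest ratio, lies on chromosome 19 from 34996848 to 35050221 (mm9), and the Ifit cluster of interferon-induced genes lies before it within the 500 kb looked at. All 7 rows past the filter within 500 kb of it were lower in siLinc-Yy1, with a median log2 ratio of -0.51, while 54.6% of all rows past the filter were lower. Nearest was Pank1, a pantothenate kinase 42.9 kb away, at 3.85 FPKM in siLinc-Yy1 and 5.14 FPKM in siNC. Ifit1 measured 18.5 FPKM in siLinc-Yy1 and 32.4 FPKM in siNC, Ifit3 23.8 and 52.8 FPKM, Ifit2 5.75 and 8.64 FPKM and I830012O16Rik 14.0 and 35.2 FPKM in the same order. The lysosomal lipase Lipa measured 14.0 FPKM in siLinc-Yy1 and 16.7 FPKM in siNC, and Ch25h 4.51 and 4.53 FPKM. Around the other 27 kinesins past the filter the neighbour median ran from -0.21 (Kif5c) to 0.19 (Kif23), over as few as 1 row. An all-lower neighbourhood was not particular to Kif20b. All 7 rows around Kif13a were lower too, with a median of -0.14, as were both rows around Kif2a, both around Kif18a and the 1 row around Kif16b. Kif11, also on chromosome 19, had 7 neighbours, of which 6 were lower. The neighbourhood was looked at after the value of Kif20b was seen, and any part of it in that value was not tested.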
